A study of Mus musculus with 9 samples.

Results

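A set of 9 genes was read: Dcn, Lum, Ogn, Lox, Slc6a13, Igf2, H19, Aqp1 and Thbs4. Its name comes from the connective tissue that wraps the cord and from imprinted growth control. That name does not cover Aqp1 and Thbs4, which are described below as genes of other tissues. The 9 genes are among the 40879 gene symbols of the deposited table, found by symbol. The set was chosen by measured levels in these same 9 libraries, so the levels and fold changes below describe the set and carry no test of it. RNA came from spinal cord of male mice, with 3 libraries in each of 3 groups, named SNI+LDN193189, SNI and sham in the labels. SNI stands in pain research for spared nerve injury, in which branches of the sciatic nerve are cut and a remaining branch is left intact. A sham animal has the operation without the nerve lesion. LDN193189 is a small molecule that inhibits the kinase activity of type I receptors for bone morphogenetic proteins, ACVR1 among them. The SNI+LDN193189 group carries the injury as well as the compound. The labels give no strain, age, cord segment or side, time after injury, dose, route or vehicle, and do not say whether the replicates are separate animals, so a p-value here reflects the spread among these libraries alone, which may be technical. The extraction text speaks of cell lines although the tissue label is spinal cord.

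The meninges are sheets of fibroblasts and collagen around the cord and its nerve roots. Their fibroblasts secrete small leucine-rich proteoglycans, which sit on collagen fibrils, and carry transporters that move solutes between cerebrospinal fluid and tissue. Igf2 and H19 are neighbours under joint imprinting: Igf2 is read mainly from the paternal chromosome and H19 from the maternal one, and both are strong in the fetus and weak in most adult tissues. Igf2 stays on in adult meninges and choroid plexus, and H19 in adult skeletal muscle.

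Libraries held 33432776 to 37190467 counts, and levels across libraries are in CPM, counts relative to library size after scaling by edgeR's TMM factors of 0.984 to 1.02. Cord markers were abundant throughout: 6 neuronal markers summed to 3484 to 3690 CPM in SNI+LDN193189, 3453 to 3641 in SNI and 3076 to 3552 in sham. Sprr1a, a gene of injured neurons, stood at 6.38, 17.4 and 0.688 CPM in SNI+LDN193189, 6.62, 15.1 and 23.0 in SNI and 0.161, 0.235 and 0.215 in sham. SNI+LDN193189 replicate 3 was thus closer to sham than to the other injured libraries for Sprr1a. Atf3, which codes for a stress-induced transcription factor, was at 1.15 CPM in that library, 5.63 and 9.80 in the others of its group, 5.83 to 12.2 in SNI and 1.17 to 3.07 in sham. Of the 9 genes, 8 had counts in every library and passed the filter on low counts, and Ogn was listed at 0 in all 9 libraries.

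The 8 genes with counts stood lower in SNI than in sham, and lower in SNI+LDN193189 than in sham, by group means. The high sham means rested on different libraries for different genes. Sham replicate 3 was the highest of the 9 libraries for 5 genes, namely Dcn, Lum, Lox, Slc6a13 and Igf2. Sham replicate 1 was the highest for H19 and Aqp1, and sham replicate 2 for Thbs4. For 3 genes, H19, Aqp1 and Thbs4, each sham library lay above all 6 injured ones.

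**Figure D1:**
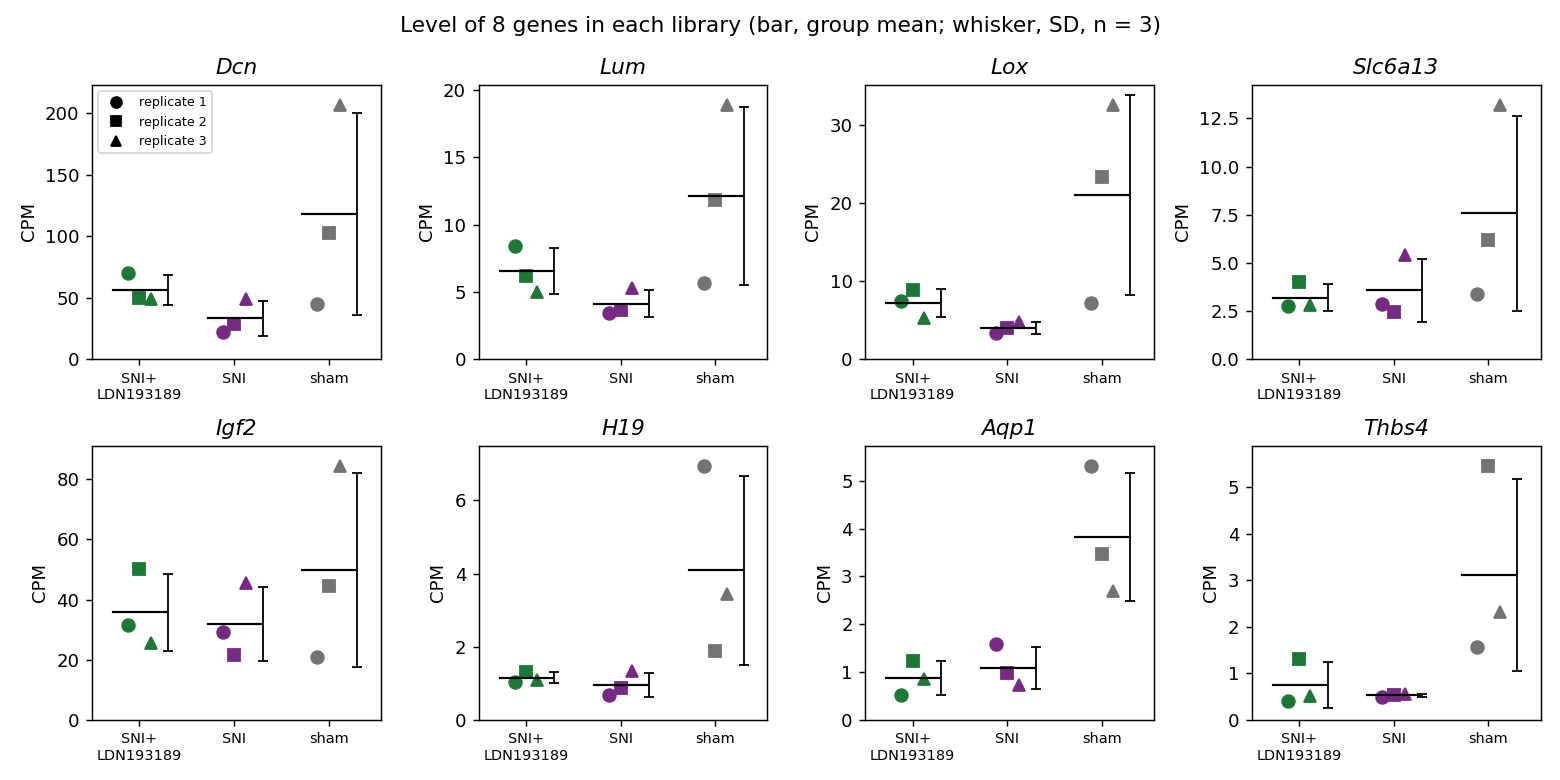
CPM of the 8 genes with counts in each library, 1 panel per gene, with points for libraries and bars for the mean ± SD (n = 3) of SNI+LDN193189, SNI and sham. The sham points spread most: Dcn runs from 44.7 to 207 CPM in sham, against 48.5 to 70.2 in SNI+LDN193189 and 21.6 to 49.2 in SNI.

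Dcn encodes decorin, a small leucine-rich proteoglycan that binds collagen and growth factors of the TGF-beta family. Its levels in replicates 1 to 3 were 70.2, 49.7 and 48.5 CPM with SNI+LDN193189, 21.6, 28.4 and 49.2 CPM with SNI, and 44.7, 103 and 207 CPM with sham. Sham replicates 2 and 3 lay above all injured libraries, and sham replicate 1 lay within their range. The log2 fold change (edgeR) was -1.83 (SE 0.610) for SNI against sham, 0.76 (SE 0.606) for SNI+LDN193189 against SNI and -1.07 (SE 0.592) for SNI+LDN193189 against sham. Without sham replicate 3 the Dcn values against sham were -1.16 for SNI and -0.40 for SNI+LDN193189. In the genome (GRCm38, GENCODE M21) Dcn lies on chromosome 10 at 97479609 to 97518143, and 46984 bases after it on the same strand lies Lum (97565128 to 97572703).

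Lum encodes lumican, a proteoglycan of the same family that spaces collagen fibrils. Its levels were 8.39, 6.21 and 4.99 CPM in SNI+LDN193189, 3.40, 3.66 and 5.26 CPM in SNI, and 5.68, 11.8 and 18.9 CPM in sham. All SNI libraries were below all sham libraries, and the SNI+LDN193189 libraries overlapped with both groups. Its log2 fold change was -1.56 (SE 0.448) for SNI against sham and 0.67 (SE 0.450) for SNI+LDN193189 against SNI. The ratio of Dcn to Lum varied less than either gene alone. Dcn CPM over Lum CPM was 8.36, 8.00 and 9.74 in SNI+LDN193189, 6.36, 7.75 and 9.36 in SNI, and 7.86, 8.69 and 10.9 in sham. It was lowest in SNI replicate 1 and highest in sham replicate 3, also the lowest and highest libraries for Dcn. The highest ratio was 1.72 times the lowest, while Dcn itself spanned 9.55-fold over the 9 libraries and Lum 5.55-fold. Over the libraries the log2 CPM of the pair had a Pearson r of 0.986 and a Spearman rho of 0.950.

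Lox encodes lysyl oxidase, the secreted enzyme that starts the cross-linking of collagen and elastin. It stood at 7.41, 8.78 and 5.27 CPM in SNI+LDN193189, 3.28, 3.93 and 4.71 CPM in SNI, and 7.24, 23.3 and 32.5 CPM in sham. The 3 groups of libraries were nearly stacked, with every SNI library lowest, every SNI+LDN193189 library above SNI, and 1 sham library inside the SNI+LDN193189 range. Lox had the largest log2 fold change of the 8 for SNI+LDN193189 against SNI, 0.85 (SE 0.558), and -2.40 (SE 0.560) for SNI against sham. Relative to Lum it was higher in 2 sham libraries than in any injured one: Lox CPM over Lum CPM was 0.884, 1.41 and 1.06 in SNI+LDN193189, 0.964, 1.07 and 0.895 in SNI, and 1.27, 1.97 and 1.72 in sham. Lox lies on chromosome 18 at 52516067 to 52529867.

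Ogn encodes osteoglycin (mimecan), a further small leucine-rich proteoglycan. Its count was 0 in every library, and it is described here as listed at 0. The gene lies on chromosome 13 at 49608046 to 49624501, wholly inside Cenpp, a kinetochore gene on the opposite strand, which stood at 7.99 to 12.1 CPM. The proteoglycan genes Aspn, Omd and Ecm2 lie inside Cenpp too, and each was also listed at 0 in all libraries. Dcn, of the same family, had 712 counts in its lowest library. No level of Ogn can be read from these files.

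Slc6a13 encodes GAT2, a transporter of GABA and taurine found in the leptomeninges of the mouse. It stood at 2.76, 4.00 and 2.81 CPM in SNI+LDN193189, 2.86, 2.42 and 5.43 CPM in SNI, and 3.38, 6.16 and 13.2 CPM in sham. Sham replicate 3 had 2.14 times the level of the next library, sham replicate 2 lay just above the injured range and sham replicate 1 within it. The log2 fold change was -1.08 (SE 0.539) for SNI against sham and -1.25 (SE 0.543) for SNI+LDN193189 against sham. Without sham replicate 3 these values were -0.42 and -0.58. Between the injured groups the Slc6a13 value was -0.16 (SE 0.551), and it was 0.27 without SNI replicate 3. The gene lies on chromosome 6 at 121300227 to 121337733.

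Igf2 encodes insulin-like growth factor 2, a growth factor of the fetus. Its levels were 31.6, 50.1 and 25.7 CPM in SNI+LDN193189, 29.1, 21.4 and 45.3 CPM in SNI, and 20.8, 44.5 and 84.4 CPM in sham. Sham held both the highest and the lowest library, and the 3 groups overlapped throughout. Differences between groups made up 10.5% of the variance of Igf2's log2 CPM over the 9 libraries, the smallest share of the 8 genes. The log2 fold change was -0.64 (SE 0.574) for SNI against sham and -0.48 (SE 0.572) for SNI+LDN193189 against sham, and without sham replicate 3 these were -0.03 and 0.13. Igf2 lies on chromosome 7 at 142650766 to 142666816 on the minus strand and overlaps Igf2os, an antisense transcript at 0 to 0.332 CPM.

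H19 is a long noncoding RNA that lies 72622 bases beyond the 3′ end of Igf2, on chromosome 7 at 142575529 to 142578143. It stood at 1.03, 1.31 and 1.09 CPM in SNI+LDN193189, 0.669, 0.861 and 1.33 CPM in SNI, and 6.94, 1.88 and 3.44 CPM in sham. Every sham library exceeded every injured library, and sham replicate 1 had 2.02 times the level of the next. The log2 fold change was -2.10 (SE 0.431) for SNI against sham and -1.83 (SE 0.425) for SNI+LDN193189 against sham. Without sham replicate 1 the H19 values were -1.48 and -1.22.

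The relation of Igf2 to H19 turned on 1 library. Their log2 CPM had a Pearson r of 0.17 and a Spearman rho of 0.25 over 9 libraries, and an r of 0.88 and a rho of 0.79 over the 8 without sham replicate 1, an exclusion chosen after the data were seen. Igf2 CPM over H19 CPM was 30.5, 38.1 and 23.6 in SNI+LDN193189, 43.5, 24.9 and 34.1 in SNI, and 2.99, 23.7 and 24.5 in sham. Sham replicate 1 stood alone with a low ratio, being the library with the lowest Igf2 and the highest H19, and over the other 8 libraries the highest ratio was 1.84 times the lowest. Igf2 over Slc6a13 was 11.4, 12.5 and 9.14 in SNI+LDN193189, 10.2, 8.84 and 8.36 in SNI, and 6.15, 7.22 and 6.40 in sham. That ratio was lower in every sham library than in any injured one, although both genes were highest in sham replicate 3. Each ratio was chosen after the levels were seen and has no test.

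**Figure D2:**
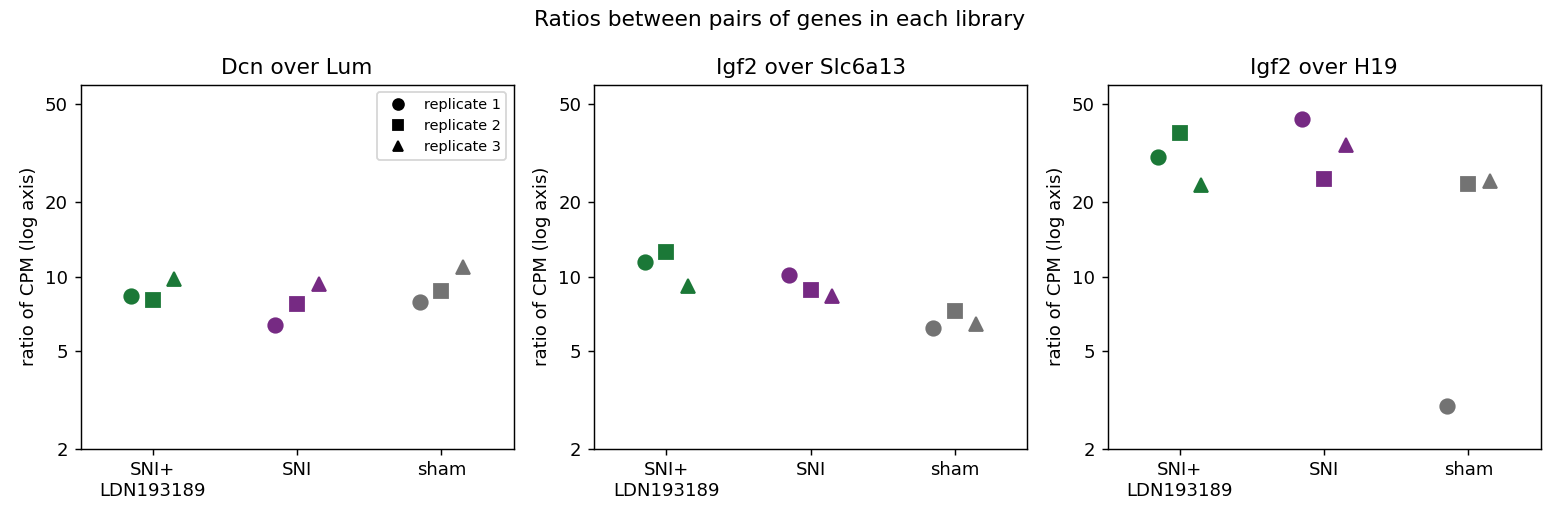
Ratio of CPM between pairs of genes in each library, on a log axis shared by the panels (Dcn over Lum, Igf2 over Slc6a13 and Igf2 over H19), with 1 point per library for SNI+LDN193189, SNI and sham. Dcn over Lum stays between 6.36 and 10.9, while Igf2 over H19 drops to 2.99 in sham replicate 1.

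Aqp1 encodes aquaporin-1, a water channel of choroid plexus epithelium, some small vessels, red blood cells and some sensory neurons. It stood at 0.517, 1.22 and 0.860 CPM in SNI+LDN193189, 1.58, 0.969 and 0.720 CPM in SNI, and 5.31, 3.46 and 2.69 CPM in sham. Sham libraries lay above all injured libraries, and the injured groups overlapped. With 81.3% of the variance of its log2 CPM between groups, Aqp1 had the largest such share of the 8 genes. The log2 fold change was -1.81 (SE 0.361) for SNI against sham and -2.14 (SE 0.369) for SNI+LDN193189 against sham, and leaving out each library in turn gave -2.17 to -1.50 for the first. Aqp1 lies on chromosome 6 at 55336432 to 55348555.

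Thbs4 encodes thrombospondin-4, a secreted matrix protein of muscle, tendon and nervous tissue that binds a calcium channel subunit and has been studied in the cord after nerve injury. It stood at 0.402, 1.31 and 0.516 CPM in SNI+LDN193189, 0.486, 0.538 and 0.554 CPM in SNI, and 1.56, 5.45 and 2.31 CPM in sham. Every sham library was above the injured ones, with the lowest sham value close to the highest injured value. The log2 fold change was -2.55 (SE 0.531) for SNI against sham and -2.06 (SE 0.515) for SNI+LDN193189 against sham. Without sham replicate 2 the Thbs4 values were -1.87 and -1.38, and the value for SNI+LDN193189 against SNI, 0.49 (SE 0.557), was -0.20 without SNI+LDN193189 replicate 2. The lowest count above 0 in the set was Thbs4 in SNI+LDN193189 replicate 1, 14 counts. Its exact 95% binomial interval was 0.220 to 0.675 CPM before TMM scaling and covers counting error only. Thbs4 lies on chromosome 13 at 92751590 to 92794818.

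RefSeq tables (GRCm38.p6) held windows before the transcription start for 5 of the 9 genes, and 3 windows are shown, for Aqp1 and Thbs4, whose sham libraries stood apart, and for the most downstream of the 4 listed starts of Igf2, the neighbour of H19. Each has 250 bases up to the start, written 5′ to 3′ on the gene's strand, with no exon of GENCODE M21 in it. The windows are chr6:55336049-55336298 (plus strand) for Aqp1, chr13:92794819-92795068 (minus strand) for Thbs4 and chr7:142657497-142657746 (minus strand) for Igf2, the last lying within the longer Igf2 gene model and outside its exons. Capitals mark matches on either strand to the TATA box motif TATAAA, the GC box motif GGGCGG, the CAAT box motif CCAAT or the palindrome GGCGCC, and no matches overlapped in the windows shown.
Aqp1: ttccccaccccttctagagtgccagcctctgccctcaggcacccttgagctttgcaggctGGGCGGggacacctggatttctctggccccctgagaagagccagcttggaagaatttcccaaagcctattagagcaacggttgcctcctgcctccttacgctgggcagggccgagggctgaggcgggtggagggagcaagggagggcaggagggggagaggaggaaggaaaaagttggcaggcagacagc
Thbs4: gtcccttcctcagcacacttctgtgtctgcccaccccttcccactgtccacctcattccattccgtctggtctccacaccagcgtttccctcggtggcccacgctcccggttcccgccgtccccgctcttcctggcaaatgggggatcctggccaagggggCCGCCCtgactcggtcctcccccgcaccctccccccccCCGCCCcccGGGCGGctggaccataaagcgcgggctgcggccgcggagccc
Igf2: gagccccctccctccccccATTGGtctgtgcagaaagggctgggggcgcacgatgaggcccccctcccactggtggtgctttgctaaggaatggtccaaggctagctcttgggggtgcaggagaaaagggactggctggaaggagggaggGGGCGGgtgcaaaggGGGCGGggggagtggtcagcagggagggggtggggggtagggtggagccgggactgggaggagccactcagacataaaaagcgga
Of the 7 exon-free windows listed for the set, the 3 shown were those with the GC box motif, and the other 4, of Slc6a13, Ogn and another Igf2 start, had none. It lay, counted in bases before the start, at -190 in Aqp1, at -42 forward and -89 and -51 reverse in Thbs4, and at -100 and -85 in Igf2, whose window also held the CAAT box motif in reverse at -231. Of 32851 RefSeq windows of that length, 32.7% held the GC box motif, 33.8% the CAAT box motif, 12.4% the TATA box motif and 9.59% the palindrome. The TATA box motif and the palindrome had no match in the 3 windows. A match describes these letters and is not evidence of binding.

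Per gene length, in FPKM (which divides a count by gene length and library size), decorin was the most abundant of the set. Dcn averaged 26.7 ± 5.92 FPKM in SNI+LDN193189, 15.8 ± 7.10 in SNI and 56.9 ± 40.3 in sham (SD, n = 3 each). Igf2 came next with 6.24 ± 2.19, 5.62 ± 2.21 and 8.84 ± 5.82 FPKM in the same groups, and Lum followed with 3.14 ± 0.840, 1.98 ± 0.513 and 5.91 ± 3.28 FPKM. Lox averaged 1.49 ± 0.361 FPKM in SNI+LDN193189, 0.831 ± 0.161 in SNI and 4.42 ± 2.72 in sham, and Slc6a13 1.09 ± 0.232, 1.23 ± 0.574 and 2.62 ± 1.79. The rest were low. H19 averaged 0.499 ± 0.0612 FPKM in SNI+LDN193189, 0.418 ± 0.155 in SNI and 1.81 ± 1.16 in sham, Aqp1 0.312 ± 0.126, 0.393 ± 0.154 and 1.39 ± 0.495 in the same groups, and Thbs4 0.232 ± 0.153, 0.165 ± 0.0133 and 0.975 ± 0.629. Within sham, neighbours in this order from Igf2 downward differed by less than the larger of their SDs, and Lox and Slc6a13 changed places between SNI and the other groups.

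**Figure D3:**
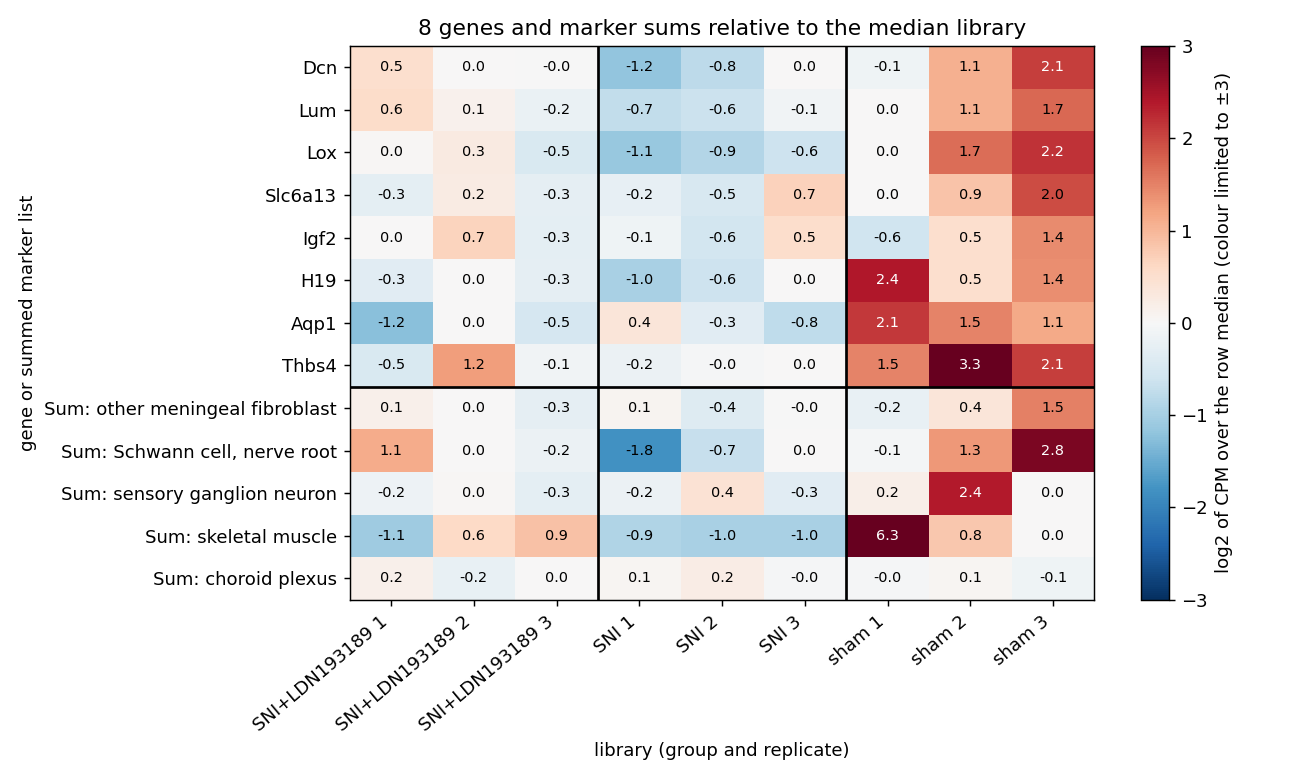
Heat map of log2 CPM relative to each row's median over the 9 libraries, for the 8 genes and, under the line, for summed marker lists of neighbouring tissues, with columns for SNI+LDN193189, SNI and sham replicates. Nerve root markers peak in sham replicate 3 (4552 CPM), muscle markers in sham replicate 1 (807 CPM) and ganglion markers in sham replicate 2 (56.3 CPM), the libraries in which 1 or more of the 8 genes also peak.

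The first comparison, SNI against sham, concerns the nerve lesion. All 8 genes with counts had a log2 fold change below 0, with a median of -1.82, beside a median of 0.000482 over the 18245 genes tested, of which 49.9% were below 0. In 5 of the 8, namely Lum, Lox, H19, Aqp1 and Thbs4, every SNI library was below every sham library, and 4.43% of all genes tested had this pattern. The choice of the genes drew on these libraries, so nothing is read from these shares. By edgeR's quasi-likelihood test, adjusted by Benjamini-Hochberg over all genes, 0 of the 8 were called, with adjusted p from 0.620 to 0.959, and 0% of all genes were called. Unadjusted p was under 0.05 for 6 of the 8 and for 5.33% of all genes tested. DESeq2 called 4 of the 8 lower, H19 (adjusted p = 0.00375), Thbs4 (adjusted p = 0.00375), Aqp1 (adjusted p = 0.00962) and Lox (adjusted p = 0.0151), and 0.0989% of the 18201 genes it gave a value, while limma-voom and limma on log2 FPKM called 0 of the 8. Without sham replicate 1 edgeR called 3 of the 8 lower, Lox (adjusted p = 0.000656), Lum (adjusted p = 0.0335) and Thbs4 (adjusted p = 0.0354), and 38 genes in all.

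SNI+LDN193189 against SNI concerns the compound in injured mice. By group means 6 of the 8 genes were higher with the compound and 2 lower. Their median log2 fold change was 0.38, beside -0.000748 over all genes tested. The values ran from -0.32 for Aqp1 (SE 0.382) to 0.85 for Lox. Of the 8 genes, 1, Lox, had groups of libraries that did not overlap, higher with the compound, a pattern of 5.71% of all genes tested. With edgeR 0 of the 8 were called, against 0.00548% of all genes, 0 of the 8 and 3.88% of all genes had an unadjusted p under 0.05, and DESeq2 called 0 of the 8 and 0.033% of its genes. The limma fits called 0 of the 8 as well. The signs of Igf2, Slc6a13, Aqp1 and Thbs4 each turned when a single library was left out. Without SNI+LDN193189 replicate 3, the library with low Sprr1a, Lox stood at 1.02 (SE 0.634), Dcn at 0.86 (SE 0.720) and Lum at 0.83 (SE 0.509).

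SNI+LDN193189 against sham shares its sham libraries with the first comparison and its SNI+LDN193189 libraries with the second, so the 3 comparisons are not independent. All 8 genes again had values below 0, with a median of -1.40 beside -0.01 over all genes. The range was from -2.14 for Aqp1 to -0.48 for Igf2. In H19, Aqp1 and Thbs4 all SNI+LDN193189 libraries were below all sham libraries, which held for 6.31% of all genes. With edgeR 0 of the 8 were called, with adjusted p from 0.144 to 0.844, against 0.0164% of all genes tested, and 4 had an unadjusted p under 0.05, against 8.56% of all genes. DESeq2 called 3, Aqp1 (adjusted p = 0.000101), H19 (adjusted p = 0.00625) and Thbs4 (adjusted p = 0.0166), and 0.22% of genes as lower, and both limma fits called 0 of the 8. With edgeR, a single gene of the 8 passed without certain libraries: Lox without sham replicate 1 (adjusted p = 0.0166), H19 without sham replicate 2 (adjusted p = 0.0448) and Aqp1 without SNI replicate 3 (adjusted p = 0.033). The calls over all genes in such fits are given as a range in the last section. Nothing is read from these single calls.

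**Figure D4:**
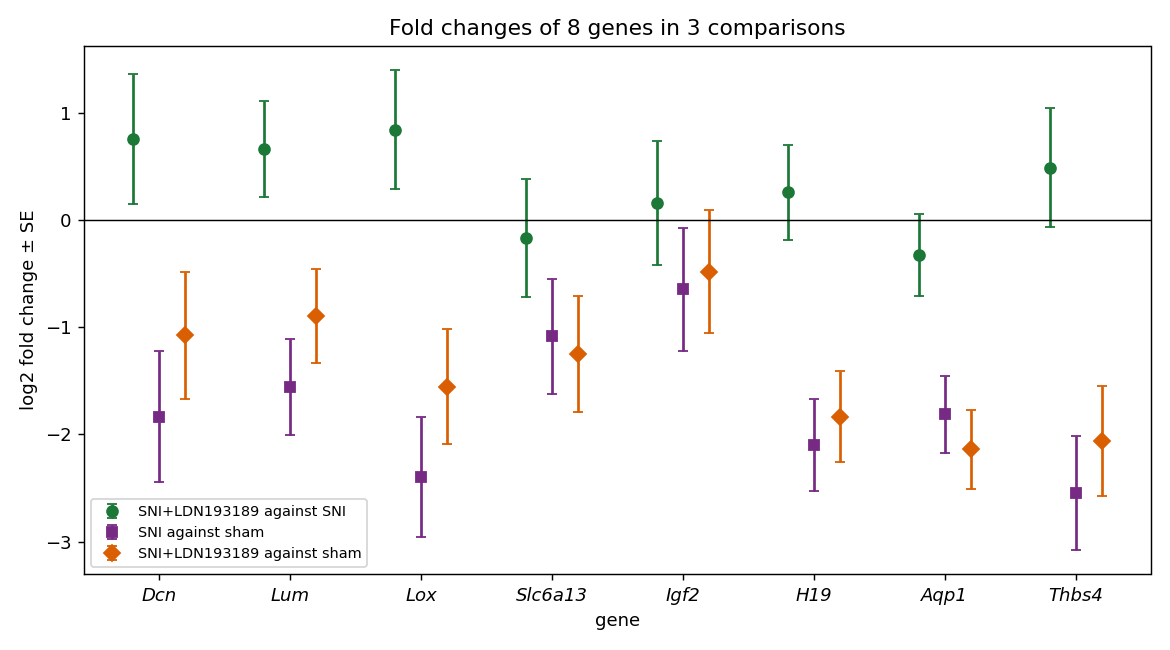
Log2 fold change ± SE (edgeR) of each of the 8 genes in SNI+LDN193189 against SNI, SNI against sham and SNI+LDN193189 against sham, with a line at 0. All points against sham lie below 0, from -2.55 to -0.48, and those of SNI+LDN193189 against SNI lie between -0.32 and 0.85.

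The spread between libraries of a group was wide for these genes. Their biological coefficient of variation in the edgeR fit ran from 0.304 for Aqp1 to 0.487 for Dcn, beside a median of 0.119 over all genes tested, which put them at the 84.2 to 97.5 percentile. Fewer cells of a type and less RNA per cell cannot be told apart in RNA of whole tissue.

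Several marker lists of tissue in and around the cord stood high in the same libraries as these genes, and their part in the results was not tested. The 10 Schwann cell and nerve root markers, none at 0, summed to 1376, 640 and 571 CPM in SNI+LDN193189, 181, 399 and 644 CPM in SNI, and 617, 1575 and 4552 CPM in sham, with all 10 below 0 in log2 fold change of SNI against sham. Within each group the order of the libraries was that of Dcn. The 12 skeletal muscle markers summed to 5.00 to 19.5 CPM in SNI+LDN193189, 5.36 to 5.68 in SNI and 807, 18.4 and 10.5 in sham replicates 1 to 3, and sham replicate 1 was also the library of the H19 and Aqp1 peaks. The 8 ganglion neuron markers summed to 8.80 to 11.1 CPM in SNI+LDN193189, 8.50 to 14.5 in SNI and 12.2, 56.3 and 10.8 in sham, with sham replicate 2 also the highest for Thbs4. The 3 ganglion markers with the highest FPKM were P2rx3, Isl2 and Avil. P2rx3 stood at 4.71 to 5.29 CPM in SNI+LDN193189, 4.41 to 5.14 in SNI and 4.96, 12.5 and 4.79 in sham. Isl2 was at 1.89 to 4.00 CPM, 1.94 to 3.34 and 2.44, 5.34 and 2.80 in these groups. Avil was at 1.09 to 1.55 CPM, 0.972 to 2.31 and 1.98, 11.4 and 1.88. Mrgprd is a receptor of pain neurons of the ganglion, named after its values were seen. It was at 0 in all injured libraries and at 0.107, 2.11 and 0 CPM in sham. The 7 choroid plexus markers summed to 8.87 to 11.6 CPM in SNI+LDN193189, 10.0 to 12.0 in SNI and 9.36 to 10.8 in sham. The 3 choroid plexus markers with the highest FPKM were Kl, Clic6 and Slc4a5. They stood at 4.15 to 6.35, 1.49 to 2.80 and 1.40 to 3.71 CPM over the 9 libraries. Kcnj13 and Otx2 were listed at 0 in all libraries. Ttr, the abundant transthyretin of that epithelium, also named after its values were seen, was at most 0.120 CPM. As with Ogn, no level is read here from a gene listed at 0 in all libraries, Alas2 and Scx below included. Red blood cell markers, with Alas2 at 0 of 7, summed to 130 to 283 CPM in SNI+LDN193189, 111 to 157 in SNI and 187 to 281 in sham. Tendon and cartilage markers, with Scx at 0 of 8, summed to 23.9 to 28.3 CPM over the 9 libraries. The 6 perivascular macrophage markers, none at 0, summed to 9.63, 9.56 and 7.39 CPM in SNI+LDN193189, 7.17, 5.41 and 8.50 in SNI and 8.04, 10.3 and 19.6 in sham, and all 6 had a log2 fold change below 0 in SNI against sham. The 8 mural cell markers, none at 0, summed to 226 to 245 CPM in SNI+LDN193189, 249.8 to 279.6 in SNI and 233, 219.7 and 332 in sham, so both lists peaked in sham replicate 3 as well. The 6 endothelial markers, none at 0, summed to 316 to 346 CPM in SNI+LDN193189 and 312 to 359 in SNI. In sham they summed to 336, 315 and 378, with sham replicate 3 again the highest library.

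Other genes of meningeal fibroblasts, 24 in number and all tested, were set beside the 8, from a list written with earlier results of these data known. In SNI against sham 23 of 24 had values below 0, with a median of -0.51, and 0 were called by edgeR, DESeq2 or the limma fits. An unadjusted p under 0.05 in edgeR was found for 3 of the 24, beside 5.33% of all genes, and DESeq2 called 0.0989% of all genes lower. The 3 with the highest FPKM were Col1a2, a chain of type I collagen, Mgp, an inhibitor of calcification, and Igfbp2, which binds insulin-like growth factors. Col1a2 averaged 56.7 ± 17.1 CPM in SNI+LDN193189, 53.3 ± 18.9 in SNI and 135 ± 119 in sham, of which sham replicate 3 had 271 (SD, n = 3 each). Mgp stood at 10.8 ± 4.91, 7.50 ± 3.73 and 11.3 ± 6.75 CPM, and Igfbp2 at 18.5 ± 3.17, 15.3 ± 1.91 and 19.4 ± 6.57 CPM in these groups. The summed list was 303, 273 and 226 CPM in SNI+LDN193189, 289, 211 and 270 in SNI and 232, 352 and 780 in sham, so sham replicate 1 was within the injured range for meningeal markers while sham replicate 3 was not. Between the injured groups 18 of 24 had values above 0, with a median of 0.19, and against sham 22 of 24 with the compound were below 0, with a median of -0.40.

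Lists of relatives of each gene had median log2 fold changes between -0.26 and 0.26 in SNI against sham, with 0 members called by edgeR, DESeq2 or the limma fits in any of them, and 7 of 70 tested (10.0%) with an unadjusted p under 0.05 in edgeR, beside 5.33% of all genes. Of the other small leucine-rich proteoglycans 7 of 12 were tested, 5 below 0 with a median of -0.26, and 4 were listed at 0 in all libraries. Bgn (biglycan) stood at 21.3 ± 3.75 CPM in SNI+LDN193189, 20.3 ± 5.52 in SNI and 26.2 ± 10.9 in sham. Other imprinted genes had 21 of 34 tested, 12 below 0 with a median of -0.04. Among those not tested, 10 were listed at 0 in all libraries, Ndn, Snrpn and Nnat among them, and Zrsr1 was not listed. The maternally expressed noncoding Meg3 averaged 1397 ± 78.0 CPM in SNI+LDN193189, 1620 ± 163 in SNI and 1687 ± 518 in sham. Of the other insulin-like growth factor genes 16 of 18 were tested, with 13 below 0 and a median of -0.09. Other collagen maturation genes had 14 of 15 below 0, with a median of -0.13, where Serpinh1, the collagen chaperone HSP47, had -0.81 (SE 0.375). The 4 other thrombospondins had a median of -0.09, and Thbs2 was at 24.3 ± 2.52, 24.6 ± 2.61 and 24.7 ± 1.90 CPM in SNI+LDN193189, SNI and sham. Other transporters for GABA and similar solutes had 1 of 5 below 0, with Slc6a11 (GAT3, of astrocytes) at 525 ± 54.3, 548 ± 9.95 and 517 ± 7.06 CPM in these groups. Of 10 other aquaporins 3 were tested and 3, Aqp2, Aqp4 and Aqp5, were listed at 0, so the cord's main water channel Aqp4 gives no comparison for Aqp1.

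Across the 9 libraries, the genes most like the mean of the 8 standardized log2 CPM profiles were Resf1 (Pearson r = 0.967), Six5, Abca8b, Col6a2 (a type VI collagen chain), Parva, Pdpn (podoplanin, a meningeal and glial membrane protein), Meox2 and Ecscr, with r of 0.943 or more. Of these 8, 5 were shared when Spearman's coefficient was used and 5 without sham replicate 3. Taken singly and chosen after the values were seen, Dcn was nearest to Dhh, the hedgehog ligand that Schwann cells secrete (r = 0.991), and Igf2 was nearest to Bgn (r = 0.983), with Aldh1a2, the retinoic acid enzyme of meninges, next (r = 0.968). Slc6a13 was nearest to Clec3b (r = 0.964) and Lum to Mfap5, a microfibril protein (r = 0.987). H19 was nearest to Cd36, a fatty acid transporter of muscle and other cells (r = 0.971). It is not known here whether the 9 libraries were prepared together, and these values describe these libraries alone.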

How the data were processed

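The deposited table holds whole-number counts per gene symbol, 1 column per library, and the deposited FPKM are those counts over the library total and a constant length for each gene, which held for 26285 of 26285 genes with a count within a tolerance of 1e-09. The labels' protocols describe poly(A) selection and strand-marked libraries read as pairs. The submitters' processing notes name mm10, while aligner, counter and annotation are not given in the sources used here. Column letters L, S and N were read as LDN193189, sham and SNI from their names, and Sprr1a was a later check. With S as SNI the directions between sham and SNI would turn. Between 70.7 and 71.8% of the counts above 0 in a library were even, as were 95.8% of the 72 counts of the set, so a counting interval may be too narrow.

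Counts were fitted with edgeR 4.0.16 (quasi-likelihood, robust, TMM) in R 4.3.3, all 9 libraries in 1 fit with 6 residual degrees of freedom, over the 18245 genes left by filterByExpr, and p-values adjusted by Benjamini-Hochberg, called under 0.05. CPM were TMM-scaled, and SE was derived from the fold change and its F value. Alternatives were DESeq2 1.42.0, limma 3.58.1 (voom, and log2 FPKM + 0.1), other scalings, no filter, the 2 groups alone, a replicate block and leaving out each library. The fit was also run on simulated counts with 1 coefficient of variation, 0.132, for all genes. The 8 genes varied more, from 0.304 to 0.487, so that run does not tell how the fit performs on them. Python 3.11.15, pandas 2.3.3, numpy 2.4.6 and matplotlib 3.10.9 made tables and figures. Members and lists were chosen with earlier results of these data known. The text names all 9 genes, of each list up to 3 members with the highest mean FPKM, the 8 genes most alike, and Sprr1a and Atf3, and exceptions are said to be chosen after values were seen.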

Additional observations from a re-analysis of the deposited data

How the results depend on the processing

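The number of the 8 genes called stayed 0 for SNI+LDN193189 against SNI under all alternatives run. For SNI against sham it was 4 with DESeq2 and ranged from 0 to 3 when 1 library was left out, with 3 (Lum, Lox and Thbs4) without sham replicate 1. For SNI+LDN193189 against sham it was 3 with DESeq2, 1 (Aqp1) with no filter on low counts and 0 to 1 when 1 library was left out, Lox without sham replicate 1, H19 without sham replicate 2 and Aqp1 without SNI replicate 3. Over all genes the calls were 1, 0 and 3 in SNI+LDN193189 against SNI, SNI against sham and SNI+LDN193189 against sham, and 6, 22 and 73 with DESeq2. SNI+LDN193189 against SNI had 2 with limma-voom, 0 on log2 FPKM, 2 with no filter, 3 with only the 2 groups fitted and 0 to 2 when 1 library was left out. SNI against sham had 0 to 38 when 1 library was left out, 38 without sham replicate 1. SNI+LDN193189 against sham had 1 on log2 FPKM, 30 with no filter and 1 to 17 when 1 library was left out. The cause of these changes was not tested. Same-numbered libraries had correlations of deviations from -0.109 to 0.144, a range that overlapped with that of libraries with different numbers. With 3 libraries a group these values cannot decide whether the numbers pair the samples. In a fit with a replicate block the calls over all genes were 0, 0 and 4, and 0 of the 8 genes in each comparison. The signs of the log2 fold changes of the 8 genes were kept in 138 of 144 values for SNI+LDN193189 against SNI, 144 of 144 for SNI against sham and 143 of 144 for SNI+LDN193189 against sham. On log2(FPKM + 0.1) Thbs4 in SNI against sham had -1.86. The number of libraries, 3 a group, and the spread between them limit the precision: Dcn, with 712 or more counts in each library, had an SE of 0.610 in SNI against sham, and Aqp1, with 18 or more, an SE of 0.361.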
